A study of Rattus norvegicus with 6 samples.

Results

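The genes described here encode cytokines of the interleukin-6 (IL-6) family, their receptor subunits, the feedback inhibitor SOCS3 and the colony-stimulating factors. The list has 10 genes, and members were found as array probes whose mRNA accession maps to their rat symbols. A probe was found for 9 of them, 1 probe per gene, among 13823 genes with a probe. Csf2, which encodes granulocyte-macrophage colony-stimulating factor, had no probe matched in this way, and its level was not analysed here. RNA came from H9c2 cells, a myoblast line derived from embryonic rat heart, and was measured on 1-colour Arraystar arrays made by Agilent. The 3 samples labelled H/R (hypoxia/reoxygenation) came from cells deprived of serum and glucose, held for 1 h at 1% oxygen, 5% carbon dioxide and 94% nitrogen and then for 3 h at normal oxygen. The 3 control samples came from normoxic cells, whose medium during the experiment is not stated. All cells are of 1 immortal line, grown beforehand with 10% serum and glucose at 4500 mg/L.

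Replicates 2 and 3 of a group have 1 slide position between them and come from separate scans of it, so they were averaged as 1 array and each group has n = 2 arrays. The median absolute log2 difference over probes was 0.0551 between these 2 H/R scans and 0.0469 between these 2 control scans. It was 0.198 to 0.227 in the other pairs of scans within a group. Nothing ties the arrays to separate cultures, so the p-values reflect array-to-array spread alone, some or all of which may be technical. Each array has a slide position of its own, and effects of position and of group cannot be told apart. Of 16 muscle markers with a probe 14 were well above background in all 6 scans, among them Myod1, Myog and Des. All 9 fibroblast and mesenchyme markers with a probe were too. Their summed signal was 11800% to 15200% of an array's 75th percentile, against 4070% to 4940% for the muscle markers. Of 4 endothelium markers with a probe, Pecam1 and Cdh5 were above background in no scan. Tek, above it in all 6, rose 2.16-fold (limma adjusted p = 0.00848), and Cldn5 did not pass. A protocol field names brain cortex of mice as the RNA source. In the brain cortex list, the neuron markers Rbfox3, Slc17a7 and Gad1 were well above background in no scan, while Gfap and Mbp were above it in all 6. That list's summed signal was 66.5% to 70.9% of an array's 75th percentile in H/R scans and 40.3% to 40.5% in control scans. Of 15 muscle markers tested 5 rose and 1, the muscle regulator gene Myod1, fell to 0.360 of control (adjusted p = 0.00814), where 16.2% of all genes tested were higher and 9.62% lower. Among the 5 that rose, Chrna1 was above background in 0 control scans. It was tested through its H/R scans, and its control mean was 0.469% of an array's 75th percentile. Of 14 macrophage and leukocyte markers 4, among them Ptprc, Adgre1 and Itgam, were above background in no scan and 8, among them Cd14, Fcer1g and Csf1r, in all 6. Of the 9 tested 1 rose, Cd74, at 2.87-fold with 2 of 3 control scans above background (adjusted p = 0.00743). Cd74 was tested through its H/R scans, and its control mean was 0.653% of an array's 75th percentile. The size of its fold therefore rests on values close to the background limit. This list's summed signal was 202% to 206% of the 75th percentile in H/R scans and 180% to 190% in control scans. The part of these markers in the results below was not tested.

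Cytokines of the IL-6 family signal through receptor complexes that contain gp130, encoded by Il6st. Ligand binding activates JAK kinases, which phosphorylate STAT3. STAT3 then induces Socs3, whose product blocks the kinases and ends the signal. In heart muscle gp130 signalling is known for survival and growth responses to stress. The colony-stimulating factors act through other receptors, and their genes, like Il6, are switched on by NF-kB and AP-1 after inflammatory signals in many cell types. Their mRNAs carry AU-rich elements and are short-lived.

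Of these genes only Csf3, which encodes granulocyte colony-stimulating factor, passed the test, and it was lower in H/R cells, at 0.616 of the control signal. None of the 6 genes tested rose. Il6 stood at 0.933 of the control signal and Socs3 at 0.945, and neither passed. Lif, Il11 and Il6st were too dim to be tested. The count of 1 lower and 0 higher among 6 compares with 9.62% of the 10001 genes tested being lower and 16.2% being higher (limma, Benjamini-Hochberg adjusted p under 0.05 over 15899 probes), 25.8% in all, so the count is not set apart from the background. Of the probes tested 23.7% passed, 14.8% being higher and 8.87% lower. The median difference of the 6 genes was -0.23 on the log2 scale, against 0.066 for all genes tested. All 3 H/R scans lay below all 3 control scans for 3 of the 6 genes, as they did for 27.9% of all genes tested, and 0 of the 6 lay wholly above, as 38.2% of all genes did. Fewer RNA molecules per cell and fewer cells making an RNA cannot be told apart in these bulk samples.

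**Figure D1:**
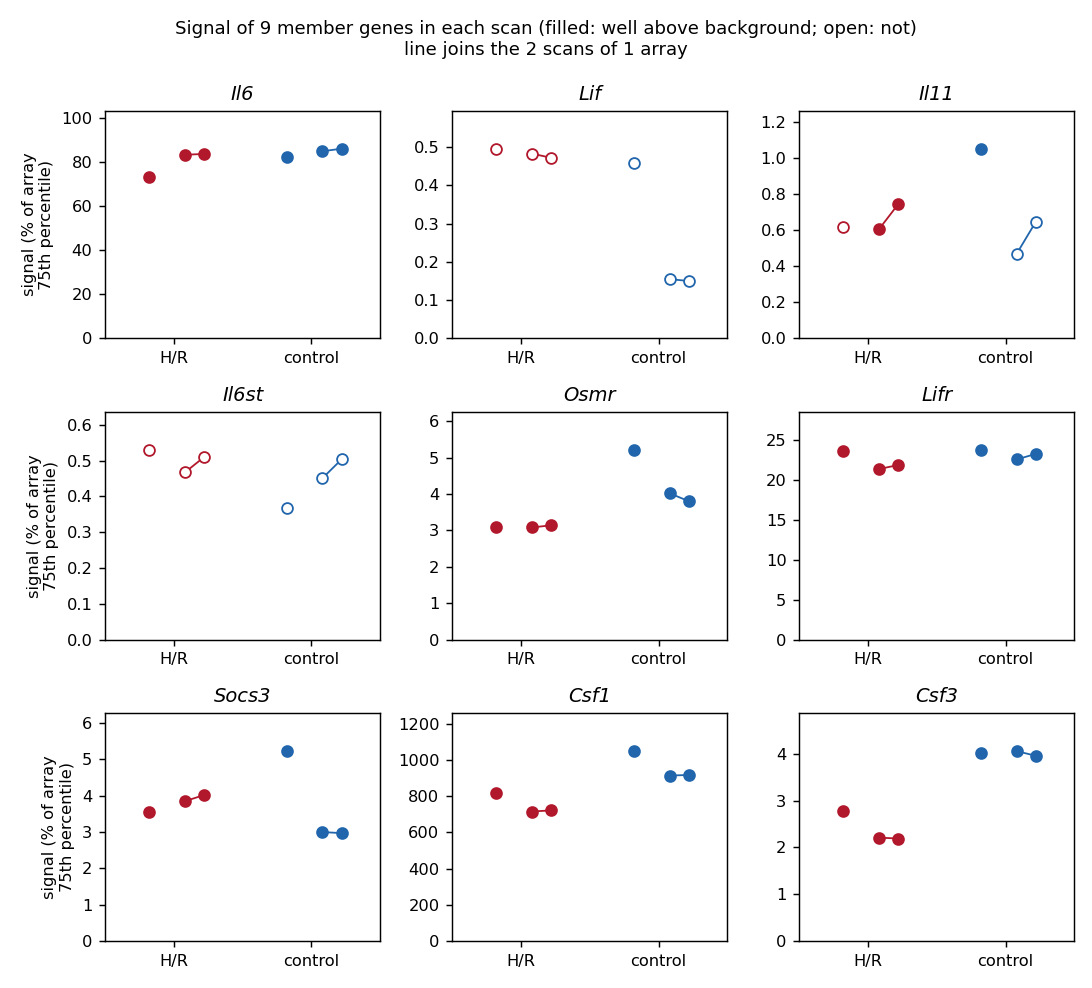
Processed signal of the 9 genes with a probe, as a percentage of the array's 75th percentile, in each H/R scan (red, left) and control scan (blue, right). Each axis starts at 0, filled points were well above background, and a line joins the 2 scans of 1 array. The 3 H/R points of Csf3 lie between 2.19% and 2.78%, below the control points at 3.96% to 4.06%, while Il6 and Lifr overlap between the groups.

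Il6 encodes the founding cytokine of the family, made by many cells in response to IL-1, TNF and stress. Its signal, given here and below as a percentage of the array's 75th percentile, was 73.4%, 83.3% and 83.7% in H/R scans 1 to 3 and 82.4%, 84.9% and 86.1% in control scans 1 to 3. The ranges overlapped, with 1 H/R scan below the others. The fitted difference was -0.10 ± 0.11 on the log2 scale (H/R minus control, moderated SE here and below, limma adjusted p = 0.532), with a 95% interval of 0.767 to 1.13 for the ratio of H/R to control.

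The RefSeq promoter of Il6 (GRCr8, chr4:5894526-5894825, minus strand, 250 bases before to 50 after the start) is shown because it holds letters for the factors usually named as activators of this gene. Capitals mark a match to the C/EBP motif TTGCNNAA, read on the opposite strand and starting 152 bases before the start, and a match to the kappaB motif (GGG, any 3 bases, TTCC) starting 68 bases before it. The promoter of Osmr (GRCr8, chr2:57688512-57688811, minus strand) is shown beside it for its AP-1 motif, TGANTCA, in capitals and starting 33 bases before the start.
Il6: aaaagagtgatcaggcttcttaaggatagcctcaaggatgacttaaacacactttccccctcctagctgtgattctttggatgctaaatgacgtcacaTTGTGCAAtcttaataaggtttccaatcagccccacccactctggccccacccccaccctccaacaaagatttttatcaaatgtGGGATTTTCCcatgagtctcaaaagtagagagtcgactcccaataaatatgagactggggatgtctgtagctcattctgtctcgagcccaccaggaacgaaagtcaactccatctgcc
Osmr: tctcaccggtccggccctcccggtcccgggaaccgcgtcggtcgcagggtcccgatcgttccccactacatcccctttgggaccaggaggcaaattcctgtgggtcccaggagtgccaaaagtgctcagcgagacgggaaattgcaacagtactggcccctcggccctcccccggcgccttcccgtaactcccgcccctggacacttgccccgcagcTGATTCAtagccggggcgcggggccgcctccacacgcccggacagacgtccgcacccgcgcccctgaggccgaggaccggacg
Both strands were searched for 5 motifs, and no matches overlapped in these promoters. Of all 33469 promoters of this length in the table, 5.37% held the kappaB letters, 10.6% the C/EBP letters, 7.33% the AP-1 letters, 8.87% the STAT letters TTCNNNGAA and 19.3% the hypoxia response letters ACGTG. Of the 7 genes of the list with a promoter in the table, Il11 also held the AP-1 letters and Csf2 the STAT letters, and 3 (Il6st, Lifr and Socs3) held none of the 5. Lif, Csf1 and Csf3 had no entry. A match is a string of letters and not a bound site.

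Lif encodes leukaemia inhibitory factor, a ligand of the gp130 and LIF receptor pair that is induced in stressed heart muscle. Its probe read 0.496%, 0.483% and 0.472% in H/R scans and 0.458%, 0.155% and 0.150% in control scans, with 0 of 6 scans well above background. All H/R scans read above all control scans, but each value is only a bound, so no fold is given. Il11 encodes a ligand known for its part in fibrosis. It read 0.614%, 0.604% and 0.743% in H/R scans, 2 of them above background, and 1.05%, 0.468% and 0.646% in control scans, 1 of them above background. The groups overlapped, with the highest and the lowest scan both among the controls. Neither gene was tested, and a difference was not detectable at this signal.

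Among the receptor subunits, the probe of Il6st was well above background in no scan. It read 0.530%, 0.467% and 0.510% in H/R scans and 0.368%, 0.451% and 0.504% in control scans. A dim probe does not show that the mRNA is lacking. Lifr encodes the LIF receptor subunit that pairs with gp130. It read 23.6%, 21.4% and 21.9% in H/R scans and 23.8%, 22.6% and 23.3% in control scans, ranges that overlapped. Its fitted difference was -0.045 ± 0.10 (adjusted p = 0.761), with an interval of 0.810 to 1.16 for the ratio.

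Osmr encodes the oncostatin M receptor subunit, which pairs with gp130 and, with other partners, serves IL-31. It read 3.10%, 3.08% and 3.14% in H/R scans and 5.21%, 4.02% and 3.80% in control scans. The H/R scans were close together and all lower than the control scans, whose 2 arrays differed from each other. The fitted difference was -0.54 ± 0.16 (ratio 0.687, interval 0.515 to 0.917 before adjustment over probes, adjusted p = 0.0708), which did not pass. It passed in 7 of 18 alternative settings, among them quantile normalization (adjusted p = 0.0398) and arrays scaled to the median (adjusted p = 0.0270). After normexp background correction its sign turned (0.41, adjusted p = 0.694). The probe is dim, at 54.8 to 82.7 units in H/R scans and 79.3 to 128 in control scans. The ratio was 0.595 when control array 2 was left out, against 0.794 when control array 1 was left out. The difference was -0.57 within the first scan run, which held replicates 1 and 2 of both groups. It was -0.28 within the second, which held only replicate 3 of both, a repeat scan of array 2. The runs thus differ in the arrays they hold.

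Socs3 encodes the inhibitor that binds gp130 and JAKs and is a direct target of STAT3. It read 3.54%, 3.85% and 4.02% in H/R scans and 5.23%, 3.00% and 2.97% in control scans. The H/R scans lay between the 2 control arrays, so the spread within the control group was wider than the difference between groups. The fitted difference was -0.081 ± 0.28 (adjusted p = 0.85), with an interval of 0.572 to 1.56 for the ratio, the widest among the 6 genes tested. Its sign turned with 1 control array: the difference was 0.32 with control array 1 left out and -0.49 with control array 2 left out, and neither passed (adjusted p = 0.188 and 0.078). It was -0.10 within the first scan run, which held replicates 1 and 2 of both groups, and 0.44 within the second, which held replicate 3 of both.

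Csf3 encodes the factor that drives production and release of neutrophils. It read 2.78%, 2.21% and 2.19% in H/R scans and 4.03%, 4.06% and 3.96% in control scans. The control scans were nearly level, and all H/R scans lay below them. It fell by 0.70 ± 0.14 on the log2 scale (ratio 0.616, interval 0.478 to 0.793, adjusted p = 0.0280). The difference was -0.71 within the first scan run and -0.85 within the second. The second run held only a repeat scan of array 2 of each group, so it is not a separate measurement. With all 6 scans as separate samples and the scan run as a block it was -0.76 (adjusted p = 0.0037), a p that counts repeat scans of 1 array as samples and is therefore too small. With 1 array left out the ratio lay between 0.547 (H/R array 1 left out, adjusted p = 0.0448) and 0.693 (H/R array 2 left out, adjusted p = 0.101, call lost). The call was also lost with control array 1 left out (ratio 0.617, adjusted p = 0.0882) and with control array 2 left out (ratio 0.615, adjusted p = 0.0737). The probe is dim: its processed signal was 49.2 to 57.7 units in H/R scans and 82.7 to 98.8 in control scans, while the dimmest spots scored well above background had 10.8 to 19.1 units. After normexp background correction the sign turned (0.34, adjusted p = 0.774).

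Csf1 encodes macrophage colony-stimulating factor, which keeps macrophages alive and is made by many mesenchymal cells. It read 820.0%, 715.9% and 722.1% in H/R scans and 1049.9%, 914.8% and 918.0% in control scans. All H/R scans were lower than all control scans, but within both groups array 1 was brighter than array 2. The difference was -0.35 ± 0.13 (ratio 0.783, interval 0.625 to 0.980 before adjustment over probes, adjusted p = 0.105) and did not pass. With arrays scaled to the median it was -0.48 and passed (adjusted p = 0.0482).

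**Figure D2:**
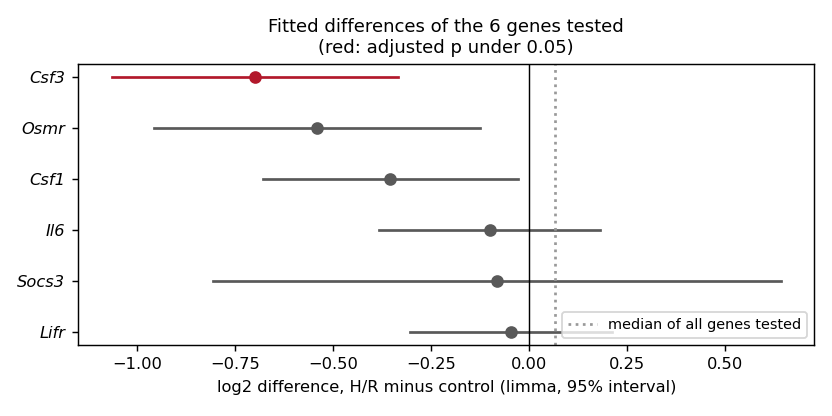
Fitted log2 differences (H/R minus control, points) of the 6 genes tested, with 95% intervals from limma (lines), n = 2 arrays per group. The dotted line is the median of all genes tested at 0.066. Csf3 (red) is the gene past the adjusted threshold, Osmr and Csf1 have intervals below 0 and did not pass after adjustment, and Il6, Lifr and Socs3 span 0.

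**Figure D3:**
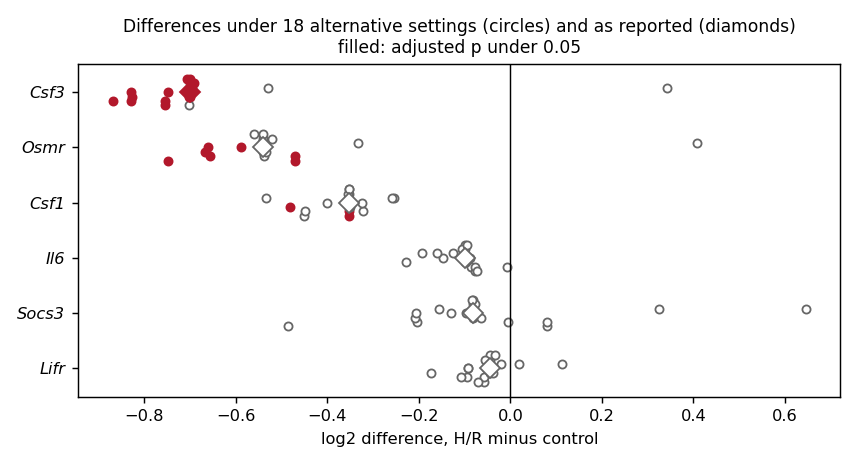
Log2 differences (H/R minus control) of the 6 genes tested as reported (diamonds) and under 18 alternative settings (circles), filled where the adjusted p was under 0.05. Csf3 is filled in 13 of 18 settings, Osmr in 7, Csf1 in 3 and the other genes in 0, and after normexp correction Csf3 and Osmr lie right of 0.

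The genes around this list were followed through 8 lists chosen for their place in the pathway. The counts below stand beside 16.2% higher and 9.62% lower among all genes tested. Few genes were tested per list, and no list was tested as a set. Of the other IL-6 and IL-12 family ligands 3 of 5 tested rose and 0 fell, and the median difference was 0.48. Ebi3, the subunit shared by IL-27 and IL-35, rose 3.64-fold (adjusted p = 0.00225). Its signal was 3.55%, 3.4% and 3.22% in H/R scans and 0.879%, 0.971% and 1.05% in control scans, of which 2 of 3 were well above background. No H/R scan came near a control scan. The gene was tested through its H/R scans, and its control signals of 20.3 to 21.9 units lie near the dimmest spots scored well above background, so the size of its fold rests on values close to that limit. Il23a, which encodes the specific subunit of IL-23, rose 1.36-fold (adjusted p = 0.0348). Cardiotrophin-1, encoded by Ctf1, was 1.41 times control and short of the threshold (adjusted p = 0.0555), and Osm was well above background in no scan.

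The list of other receptors of both families also holds Il34, which encodes a second ligand of the CSF-1 receptor, and 1 of 5 genes tested in it rose and 0 fell, with 0.40 as the median. Il11ra1, which encodes the alpha subunit of the IL-11 receptor, rose 1.75-fold (adjusted p = 0.0114). It read 128%, 131% and 131% in H/R scans and 79.0%, 69.1% and 68.3% in control scans, with no overlap. The ligand-binding chain gene Il6r was 0.957 of control (adjusted p = 0.819). The CSF-1 receptor gene Csf1r differed by 0.40 ± 0.13 (adjusted p = 0.0867), Csf2rb by 0.15 ± 0.16, Il34, above background in 2 of 3 control scans, by 0.64 ± 0.20 (adjusted p = 0.0822), and Csf3r and Cntfr were well above background in no scan.

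Of the JAK and STAT genes 3 of 8 tested rose and 0 fell, and the median was 0.27. Stat2, which acts in the type I interferon response, rose 1.93-fold, Stat5a 1.42-fold and Jak2 1.37-fold (adjusted p = 0.0064, 0.0264 and 0.0408). Stat3, the main transducer of gp130, was 0.955 of control and Jak1 1.19 times control (adjusted p = 0.627 and 0.191). Of the other inhibitors 1 of 12 tested rose and 3 fell, and the median was -0.12. Ptpn1, which encodes a phosphatase acting on JAK2, fell to 0.616 of control, Socs5 to 0.652 and Ptpn11, which encodes the phosphatase SHP2 that docks on gp130, to 0.667 (adjusted p = 0.0110, 0.0167 and 0.0170). Cish, a STAT5-induced inhibitor gene, rose 1.52-fold (adjusted p = 0.0173).

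Genes known as targets of gp130 and STAT3 moved both ways. Of 19 genes tested 4 were called higher and 3 lower, around a median of -0.0081. Bcl3, which encodes a nuclear IkB family protein, rose 5.30-fold (adjusted p = 0.00182). Its signals were 4.89%, 5.45% and 5.60% in H/R scans and 0.962%, 0.929% and 1.08% in control scans. Like those of Ebi3, its control signals, 19.4 to 23.6 units, lie near the dimmest spots scored well above background. The size of its fold therefore rests on values close to that limit. The adhesion molecule gene Icam1 rose 2.31-fold (adjusted p = 0.00542). Both are also known as NF-kB targets. Fgg, which encodes a fibrinogen chain, rose 1.45-fold and the vessel growth factor gene Vegfa 1.52-fold, while Cebpb, which encodes a C/EBP factor, fell to 0.569 of control (adjusted p = 0.0232, 0.0173 and 0.0177). The AP-1 subunit gene Junb fell to 0.484 of control and Ccnd1, which encodes cyclin D1, to 0.390 (adjusted p = 0.0054 and 0.00606). The acute-phase gene Hp, the kinase gene Pim1 and Timp1 were 1.1, 0.994 and 0.782 times control and did not pass.

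Of the inflammatory inducers and their receptors 3 of 16 tested rose and 0 fell, and the median was 0.027. The alarmin gene Il33 rose 5.76-fold (adjusted p = 0.00183), with 18.2%, 22.2% and 21.7% in H/R scans and 3.45%, 3.36% and 3.63% in control scans. Tlr3, which encodes a receptor for double-stranded RNA, rose 2.51-fold, and Irak3, an inhibitor of IL-1 and Toll-like receptor signalling, rose 1.68-fold (adjusted p = 0.00381 and 0.00874). Tnf was above background in 3 of 3 H/R scans and 1 of 3 control scans and did not pass (adjusted p = 0.0585), so no fold is given, and Il1b was above background in no scan. Among 12 transcription factor and IkB genes tested 2 were called higher and 3 lower, and the median was 0.060. The NF-kB feedback inhibitor gene Nfkbia rose 2.44-fold and Nfkb2 2.00-fold, while Fos fell to 0.346 of control and Ets1 to 0.593 (adjusted p = 0.00285, 0.00993, 0.0154 and 0.00876). The difference of Fos was 0.30 after normexp correction (adjusted p = 0.818). Its H/R signals of 18.6 to 33.7 units are dim, and the size of its fall rests on these low values. Its control arrays differed, at 4.13% and 2.66%.

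Of 14 genes for proteins that act on the decay or stability of cytokine mRNAs, 3 of them subunits of the CCR4-NOT deadenylase, 3 were called higher and 3 lower, and the median was -0.12. Zc3h12a encodes Regnase-1, a ribonuclease that cuts Il6 mRNA, and rose 2.75-fold (adjusted p = 0.00835). Its signal was 376.8%, 499.9% and 504.3% in H/R scans and 146.6%, 169.6% and 172.6% in control scans. Zfp36l2, which encodes a decay factor for AU-rich mRNAs, fell to 0.538 of control, and Arid5a, which encodes a protein that stabilises Il6 mRNA, fell to 0.678 (adjusted p = 0.0060 and 0.025). The difference of Arid5a was 0.50 after normexp correction (adjusted p = 0.653). The translational repressor gene Tia1 rose 1.66-fold and the deadenylase subunit gene Cnot8 1.42-fold (adjusted p = 0.0132 and 0.0318). Elavl1, which encodes the stabilising protein HuR, fell to 0.727 of control (adjusted p = 0.0259). Zfp36 itself, which encodes tristetraprolin, was 0.898 of control (adjusted p = 0.329).

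The medians of these lists stand beside 0.066 for all genes tested. Of 26 genes that passed the test, up to 4 per list with the smallest adjusted p, 12 kept their call with H/R array 1 left out, 12 with H/R array 2, 20 with control array 1 and 20 with control array 2 left out. The 12 that kept it whichever array was left out were Ebi3, Stat2, Bcl3, Junb, Icam1, Ccnd1, Il33, Tlr3, Nfkbia, Nfkb2, Zfp36l2 and Zc3h12a. All 26 kept their sign in these fits. They were chosen by their adjusted p in the same arrays, so kept signs and calls are not independent support for them. With arrays scaled to the median, the number higher was 1 for the ligands and 1 for the JAK and STAT genes, where Stat5a (adjusted p = 0.0616) and Jak2 (adjusted p = 0.108) no longer passed. Under that scaling 5 gp130 and STAT3 targets, 5 decay and stability genes and 2 inducers were lower. Jak2 was also short of the threshold after quantile normalization (adjusted p = 0.0546).

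**Figure D4:**
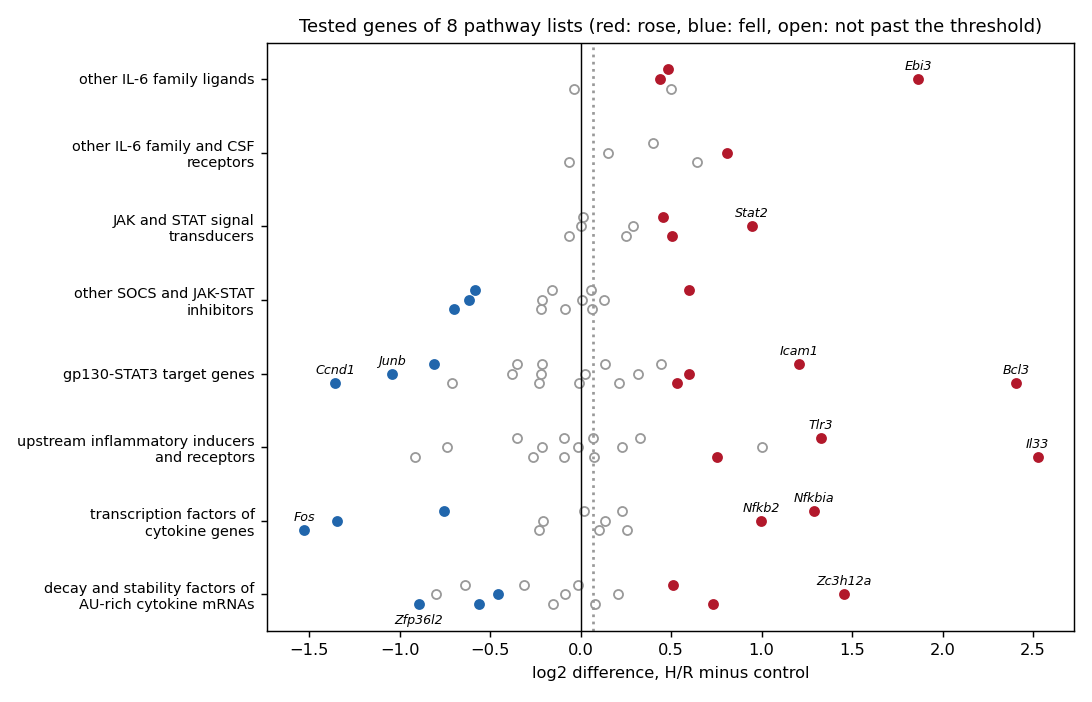
Fitted log2 differences (H/R minus control) of every tested gene in 8 pathway lists. Red points rose and blue points fell at an adjusted p under 0.05, open points did not pass, and the dotted line is the median of all genes tested. Ebi3, Bcl3 and Il33 lie farthest to the right among the points, with Fos farthest to the left.

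The genes whose pattern over the 4 arrays was most like that of Csf3, by Euclidean distance of centred log2 values, were Trps1, Glyat and Bard1, at distances of 0.0354, 0.0556 and 0.0580. Their differences were -0.69, -0.73 and -0.65, close to that of Csf3 because of the way they were chosen. Whether these genes are regulated together was not tested.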

How the data were processed

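The members, lists and tests were chosen with earlier results of these data known. Scanner files, 3 per group, were used. Per the file headers, the deposited intensity values were made with Agilent Feature Extraction 11.0.1.1, which subtracted background and a spatial trend; the submitters' processing notes name the same software. Flags, another kind of value, are coded 0 or 1 in the deposited files. A second file deposited by the authors gives log2 values of 16841 probes, whose columns have medians of 9.18 to 9.19 and correlate with the log2 scanner values across probes at 0.9998 to 0.9999. Its scale is thus log2 and genes are not centred, and the way it was normalized was not given in the sources used here.

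Control spots and spots flagged as outliers were dropped, the remaining spots averaged per probe, and the 75th percentile over 24578 probes subtracted (limma 3.58.1, R 4.3.3, Python 3.11.15, matplotlib 3.10.9). Between 58.4% and 71.1% of 42136 non-control spots were well above background and 0 were saturated. The share above background was 71.1% and 69.4% in the scans of H/R array 2. It was 60.8% in H/R array 1 and 58.4% to 61.7% in control scans. Counts of scans above background for a gene were not adjusted for this difference. Precision is limited by the small number of arrays. Accessions were named through a RefSeq table of GRCr8, which matched 14205 of 15251 coding probes. Where a gene had several probes, that of highest mean signal was used. Probes well above background in all 3 scans of a group (15899) were tested two-sided with limma's lmFit and eBayes (degrees of freedom 2 residual, 2.86 prior). This fit was checked on simulated data, where it had to return the median size of added shifts. The check did not cover effects of slide position and does not show that the calls here are right. The lists' named genes are up to 4 per list with the smallest adjusted p under 0.05. Some of these genes and markers are not reported by name here. Genes named besides these and the members were chosen after their values were seen. Same-numbered arrays had deviations correlated at 0.153 across probes, which with 2 pairs does not show pairing. Normexp used the spot and background medians because the files hold no mean signal.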

Additional observations from a re-analysis of the deposited data

How the results depend on the processing

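Across 18 alternatives, 1 of them (the 75th percentile taken over spots) chosen after seeing the data, the number of genes of the list that were higher in H/R was 0 in each, and Il6, Lifr and Socs3 passed in none. The number lower, 1 as reported, was 2 after quantile normalization, with the 75th percentile over spots and in the authors' deposited value table, where Osmr joined Csf3. It was 3 with arrays scaled to the median and with 6 scans as separate samples, without or with the scan as a block, where Csf1 joined too. It was 0 after normexp correction and without the filter on dim probes, where more probes were tested, and ranged from 0 to 1 with replicates left out. Csf3 passed in 13 of the 18. In limma, 3769 probes changed as reported, 0 after normexp (1528 at p under 0.05 before adjustment), 594 with dim probes kept, 8309 with 6 scans as separate samples, 7423 with the scan as a block, and 1008 to 3778 with replicates left out. With arrays scaled to the median, 1566 of the changed probes were higher and 2253 lower, against 2358 and 1411 as reported. That scaling moved the median difference of all probes to -0.06, against 0.0685 as reported, and normexp moved it to 0.22. After normexp the signs of Osmr (0.41), Lifr (0.11), Socs3 (0.65), Csf3 (0.34), Fos (0.30) and Arid5a (0.50) turned, and none passed; the cause was not tested. Socs3 was 0.0794 with 6 scans as separate samples, with or without the scan as a block, and ranged from -0.49 to 0.32 with replicates left out, and Lifr from -0.11 to 0.0186. With the replicate block, 3886 probes changed and Csf3 kept its call (adjusted p = 0.0304); it changed no call among the members or the 26 chosen genes of the lists. It added calls in the lists: 4 ligands higher against 3, 2 in the receptor list higher against 1, 4 inducers higher against 3 and 4 decay and stability genes lower against 3. No member had another probe to compare. Where 1 array was left in a group, it was assumed to vary like the other group's. Dim probes limit Lif, Il11 and Il6st.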
